A study of Mus musculus with 6 samples.

Results

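The genes described here are 10 members of the *Bcl2* family, the regulators of the mitochondrial route to apoptosis, in LT/ST-HSCs (long-term and short-term hematopoietic stem cells) of mice. They were chosen by gene symbol from the 26216 gene names listed for each sample, by a rule that sets no threshold on their values, and each of the 10 was listed once. They comprised 3 survival genes (*Bcl2*, *Bcl2l1* and *Mcl1*), 2 effector genes (*Bax* and *Bak1*) and 5 genes of BH3-only proteins (*Bid*, *Bad*, *Bcl2l11*, *Bbc3* and *Pmaip1*). Of these, 9 had a mean level high enough to be tested, and *Pmaip1* did not.

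The cells came from mixed bone marrow chimeras, in which *Ltbr*-/- LSKs (lineage-negative, Sca-1+ and c-Kit+ cells, CD45.2) and *Ltbr*-proficient Ly5.1 LSKs (CD45.1) had been given together to Ly5.1/Ly5.2 recipients after lethal irradiation. At week 6, HSCs of both genotypes were sorted, and RNA was sequenced from 3 *Ltbr*-/- and 3 Ly5.1 (wild-type, WT) replicates, for which 6 chimeras had been pooled. The donors of the *Ltbr*-/- replicates 1, 2 and 3 were 13, 10 and 10 to 13 weeks old, and those of each Ly5.1 replicate were 7 to 13 weeks old. The deletion was carried in the germline, and the sort kept Annexin-V-negative cells, so that cells exposing phosphatidylserine, an early sign of apoptosis, were left out of both groups. Genotype cannot be told apart from the CD45 allele and from any other difference between the donor strains.

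Mitochondrial apoptosis is controlled by the balance between the classes of this family. BAX and BAK1 oligomerize in the outer mitochondrial membrane and release cytochrome c, which leads to the assembly of the apoptosome and the activation of caspases. BCL2, BCL-XL (from *Bcl2l1*) and MCL1 bind and restrain them, and BH3-only proteins, made or activated under stress, bind the survival proteins or the effectors and shift the balance towards death. Much of this control acts on the proteins, through binding, phosphorylation, cleavage and degradation, and is not measured by RNA. HSCs depend on MCL1 for survival, and *Bax*, *Bbc3* and *Pmaip1* are known target genes of p53.

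The measured quantity was the signal deposited by the authors, a normalized expression value per gene and sample, and the log2 of it was compared between the genotypes with limma. A gene was called when its Benjamini-Hochberg adjusted p over 13108 tested genes was under 0.05 and its fold difference at least 1.5. *Ltbr* had a signal of 23.1 to 26.4 in *Ltbr*-/- cells, whereas Ly5.1 cells had 522 to 564 (log2 fold change -4.47, standard error 0.08, adjusted p = 2.15e-32 from limma), in accord with the labels. All 16 listed HSC markers passed the filter on low values, and their summed signal was 25615 to 26435 in *Ltbr*-/- and 28327 to 28876 in Ly5.1 cells, with 1 higher and 4 lower at an adjusted p under 0.05. The median log2 fold change of the HSC markers was -0.17, and 1 of the 16 was above 0. Of 10 neutrophil markers, 8 were lower at an adjusted p under 0.05 and 0 higher, with sums of 44619 to 45380 and 58357 to 62992. Their median was -0.40, and 0 of the 10 were above 0. Of 10 mast cell and basophil markers, 8 were tested, 3 were higher and 1, *Prss34*, was lower (log2 fold change -0.41). Their sum was 15284 to 16446 in *Ltbr*-/- against 7228 to 8106 in Ly5.1 cells. Most of it came from *Cyp11a1* (means of 7717 and 3102) and *Cma1* (5470 and 2195). The median log2 fold change of the list was 0.03, and 4 of the 8 tested genes were above 0. *Tpsb2* was listed at 1 in all 6 samples. B cell, T cell, erythroid and macrophage lists had 5, 2, 9 and 7 tested genes, of which 1, 0, 2 and 2 were higher and 2, 0, 1 and 1 lower, and the T cell gene *Cd3e* was listed below 1 in all samples. Past both thresholds were *Cma1* (1.32), *Cyp11a1* (1.32), *Hba-a1* (0.99), *Hba-a2* (0.86), *Emr1* (0.83) and *Cd79a* (0.62), all higher in *Ltbr*-/-, and *Igkc* (-1.21) and *Ighm* (-1.04), both lower, given as log2 fold changes. The part of these cell types in the differences of the *Bcl2* family was not tested. In sorted bulk samples, fewer cells of a type and less RNA per cell cannot be told apart.

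Of the 9 tested members, only *Bax* was called, and it was higher in *Ltbr*-/- LT/ST-HSCs. Over all tested genes, 2.72% were called higher and 0.061% lower, and 0 members were called lower. Without the fold threshold, 3 members rose (*Bax*, *Bbc3* and *Bcl2*) against a background of 10.6% of all tested genes, and 0 fell against 4.18%. At an unadjusted p under 0.05, limma likewise gave 3 members higher and 0 lower, against 2060 and 1495 of the 13108 tested genes. The values of the groups did not overlap in 2 members, *Bax* and *Bbc3*, both higher in *Ltbr*-/-, where 17.0% of all tested genes lay apart in that direction and 13.5% in the other, in which there were 0 members. The median log2 fold change was 0.07 over the 9 members, 8 of which were above 0, and -0.01 over all tested genes, of which 46.4% were above 0.

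**Figure D1:**
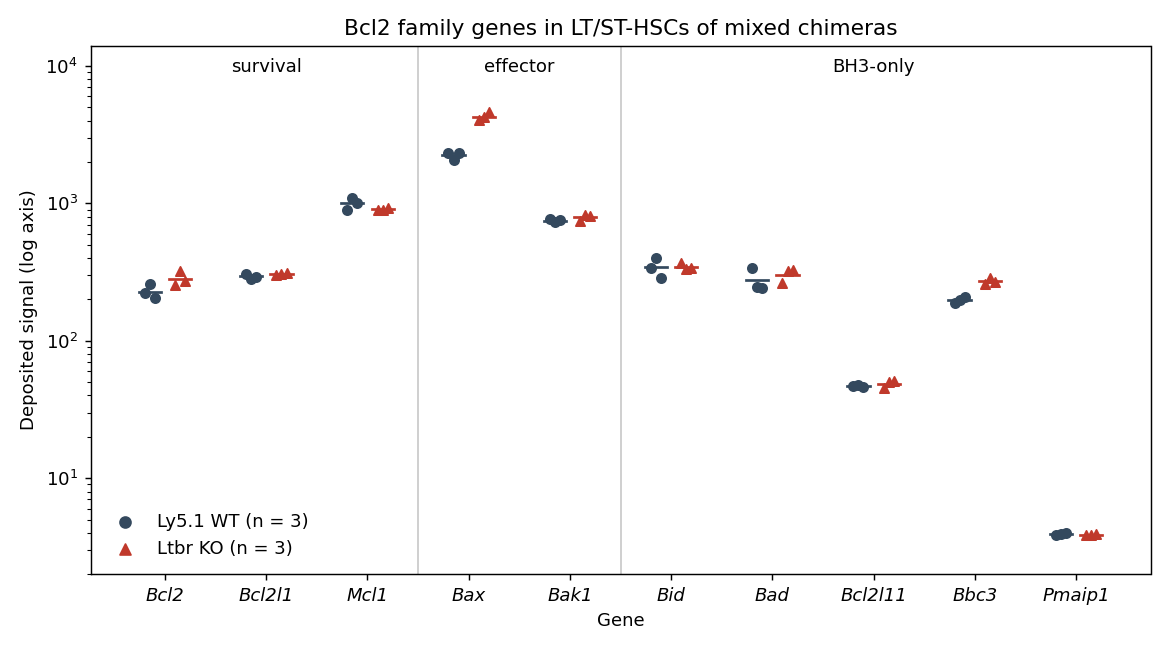
Deposited signal (log axis) of the 10 *Bcl2* family genes in each sample, with 3 Ly5.1 WT samples as circles, 3 *Ltbr* KO samples as triangles and the group means as bars. *Bax* had the highest level and lay at 4031 to 4600.42 in *Ltbr* KO against 2084 to 2345 in WT, *Bbc3* was the other gene without overlap, and *Pmaip1* lay near 4 in all 6 samples.

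Among the effectors, *Bax* RNA was nearly doubled in *Ltbr*-/- LT/ST-HSCs, whereas *Bak1* did not pass the test. *Bax* lies on chromosome 7 (chr7:45461695-45466903 in GRCm38.p6, minus strand). Replicates 1, 2 and 3 had a *Bax* signal of 4031, 4238 and 4600.42 for *Ltbr*-/- cells and of 2323, 2084 and 2345 for Ly5.1 cells. Each *Ltbr*-/- sample thus lay above every Ly5.1 sample. The *Ltbr*-/- mean of 4289.97 ± 288 and the Ly5.1 mean of 2251 ± 145 (SD, n = 3 each) had a ratio of 1.91. The log2 fold change was 0.93 (standard error 0.08, 95% confidence interval 0.77 to 1.09, adjusted p = 7.67e-12 from limma), and the exact two-sided permutation test gave p = 0.1, the smallest that 3 against 3 samples allow. At the same log2 fold change, the adjusted p from limma was 0.0116 when all names were tested and 1.97e-05 without the trend of the variance. By upward log2 fold change, *Bax* ranked 69 among the tested genes. In the annotated transcripts, 11.6% of the 76-base windows of *Bax* were shared with the overlapping gene *Gm45808*, which was not among the listed gene names.

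*Bak1*, the other effector, had a signal of 745, 820 and 807 in *Ltbr*-/- replicates, against 766, 729 and 757 in Ly5.1 replicates. The groups overlapped, since *Ltbr*-/- replicate 1 lay below Ly5.1 replicates 1 and 3. The means were 791 ± 40.4 and 750.4 ± 19.3 (SD, n = 3 each), with a log2 fold change of 0.07 and a 95% confidence interval of -0.11 to 0.25 (limma, adjusted p = 0.646). A rise of *Bak1* of the size seen for *Bax* lay outside that interval. Of its windows, 13.9% were shared with *Ggnbp1*.

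The sequence before the start of *Bax* is shown because this gene carried the main difference, and those before 2 starts of *Bbc3* because it was the other gene whose groups did not overlap. Only *Bbc3* windows that held a motif match are printed. The window of a further *Bbc3* start (chr7:16310011-16310260, plus strand) held no match and overlaps the last window printed. The sequences shown are the 250 bases upstream of RefSeq starts (GRCm38.p6), printed 5′ to 3′ on the strand of the gene, with motif matches in capitals. Both printed *Bbc3* stretches lie inside the gene, in introns of transcripts that start further upstream.
*Bax* (chr7:45466899-45467148, minus strand): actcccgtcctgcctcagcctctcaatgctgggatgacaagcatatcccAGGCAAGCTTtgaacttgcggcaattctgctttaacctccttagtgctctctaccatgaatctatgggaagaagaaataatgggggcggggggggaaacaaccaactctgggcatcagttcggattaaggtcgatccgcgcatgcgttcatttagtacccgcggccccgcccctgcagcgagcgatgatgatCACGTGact
*Bbc3* (chr7:16309333-16309582, plus strand): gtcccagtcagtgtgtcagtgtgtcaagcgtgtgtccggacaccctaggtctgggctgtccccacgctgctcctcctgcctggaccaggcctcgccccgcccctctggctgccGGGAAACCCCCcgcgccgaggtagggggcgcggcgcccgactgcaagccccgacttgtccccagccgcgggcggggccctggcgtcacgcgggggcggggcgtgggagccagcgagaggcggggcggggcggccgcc
*Bbc3* (chr7:16310181-16310430, plus strand): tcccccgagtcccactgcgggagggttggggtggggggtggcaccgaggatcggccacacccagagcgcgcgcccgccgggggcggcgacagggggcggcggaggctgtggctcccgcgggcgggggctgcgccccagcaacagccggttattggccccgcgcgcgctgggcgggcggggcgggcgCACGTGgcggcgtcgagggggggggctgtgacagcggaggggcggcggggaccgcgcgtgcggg
Both strands were searched for the consensus of the p53 half-site, the consensus of the NF-kB site, the E-box CACGTG and the TATA motif TATAAA. In the *Bax* window the capitals mark 1 match to the p53 half-site consensus, AGGCAAGCTT, and 1 E-box. In the upstream *Bbc3* window they mark 2 overlapping matches to the NF-kB consensus, and in the other *Bbc3* window 1 E-box. Matches of different motifs did not overlap. Over the 15 windows of the 9 members searched, the p53 half-site consensus occurred in 1, against 7.13% of 32851 promoter windows of the same length. The NF-kB consensus occurred in 2 of the 15 (against 5.0%), CACGTG in 2 (against 6.02%) and TATAAA in 0 (against 12.4%). These matches describe the letters of the reference sequence and are not binding data.

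Of the BH3-only genes, *Bbc3* rose in *Ltbr*-/- LT/ST-HSCs, *Bid*, *Bad* and *Bcl2l11* did not pass the test, and *Pmaip1* was near the lower end of the values in both genotypes. *Bbc3* (chr7:16308398-16318334, plus strand) encodes PUMA, which is induced by p53 and by cytokine withdrawal and binds all the survival proteins. Its signal was 257, 286 and 269 in the *Ltbr*-/- and 189.5, 199.6 and 209.7 in the Ly5.1 replicates. Every *Ltbr*-/- value therefore lay above every Ly5.1 value. The means were 271 ± 14.8 and 199.6 ± 10.1 (SD, n = 3 each), a ratio of 1.36. The log2 fold change of 0.44 had a standard error of 0.09, a 95% confidence interval of 0.25 to 0.63 and an adjusted p of 5.65e-04 (limma), and the exact permutation test gave p = 0.1. It passed the adjusted p and missed the fold threshold of 1.5, with a rank of 584 by upward log2 fold change.

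*Bcl2l11* encodes BIM, an activator of BAX and BAK1. It had the lowest signal of the tested members, at 45.2, 49.8 and 50.96 in *Ltbr*-/- and 46.9, 47.5 and 45.8 in Ly5.1 replicates. The groups overlapped, and the log2 fold change was 0.06 (95% confidence interval -0.07 to 0.18, adjusted p = 0.596 from limma). *Bid*, whose product links death receptors to the mitochondria after cleavage by caspase-8, had 366, 331 and 339 in *Ltbr*-/- and 341, 400.05 and 284 in Ly5.1 replicates. Its highest and its lowest value were both found in Ly5.1 samples, and the log2 fold change was 0.03 (95% confidence interval -0.18 to 0.24, adjusted p = 0.904 from limma). *Bid* lies on chromosome 6, at 4.39 Mb from *Ltbr*, and is thus the member closest to the targeted locus. The signal of *Bad*, a sensitizer that growth factor signals hold in check by phosphorylation, was 265, 319.7 and 326 in *Ltbr*-/- and 341, 247 and 242 in Ly5.1 replicates. Ly5.1 replicate 1 had the highest value of all 6 samples, so that the groups overlapped (log2 fold change 0.15, 95% confidence interval -0.08 to 0.37, adjusted p = 0.416 from limma; 0.31 and 0.0575 without that replicate). *Pmaip1* encodes NOXA, which binds MCL1. It was listed at 3.87, 3.87 and 3.93 in *Ltbr*-/- and at 3.87, 3.93 and 4.01 in Ly5.1 replicates. At this level it lay below the filter and was not tested, and a difference could not be measured.

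The survival genes showed a small rise of *Bcl2* that depended on the fit, and *Bcl2l1* and *Mcl1* did not pass the test. *Bcl2* (chr1:106538176-106714290, minus strand) had a signal of 256, 323 and 273 in *Ltbr*-/- and of 221, 257 and 206 in Ly5.1 replicates. The groups overlapped slightly, as *Ltbr*-/- replicate 1 lay just below Ly5.1 replicate 2. The means were 284 ± 34.7 and 228 ± 26.2 (SD, n = 3 each), and the log2 fold change was 0.31 (standard error 0.10, 95% confidence interval 0.11 to 0.52, adjusted p = 0.0317 from limma; exact permutation p = 0.2). The adjusted p from limma was 0.389 when all names were tested, 0.0689 without the trend of the variance, 0.222 without *Ltbr*-/- replicate 2, 0.0621 without *Ltbr*-/- replicate 3, 0.0902 without Ly5.1 replicate 1 and 0.138 without Ly5.1 replicate 3. *Bcl2* lies 31.3 Mb from *Ptprc*, the gene of CD45, on the same chromosome.

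*Bcl2l1*, whose transcripts encode the survival protein BCL-XL and, by alternative splicing, the pro-apoptotic BCL-XS, was read as 1 value for all transcripts. Its signal was 301, 308 and 311 in *Ltbr*-/- and 308, 282 and 292 in Ly5.1 replicates. These ranges overlapped, and the log2 fold change was 0.06 (95% confidence interval -0.12 to 0.25, adjusted p = 0.714 from limma). *Mcl1*, a short-lived survival protein, was the only tested member with a mean below that of Ly5.1 cells. It had 898, 897 and 919 in *Ltbr*-/- and 892, 1099.82 and 1010.21 in Ly5.1 replicates. The *Ltbr*-/- values lay close together and inside the Ly5.1 range (log2 fold change -0.14, 95% confidence interval -0.32 to 0.04, adjusted p = 0.331 from limma).

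**Figure D2:**
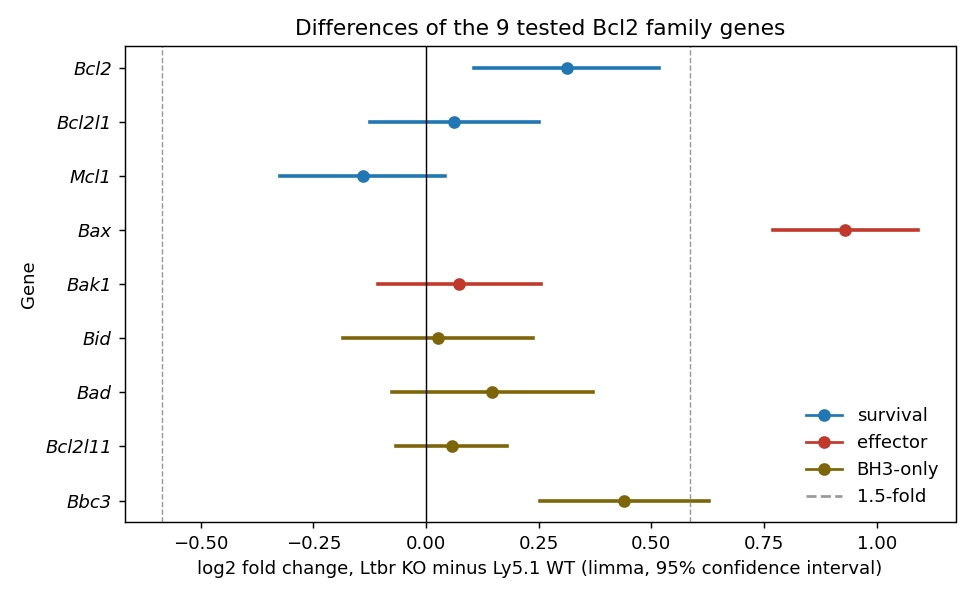
Log2 fold change of the 9 tested members (*Ltbr* KO minus Ly5.1 WT, limma) with 95% confidence intervals, coloured by class; dashed lines mark a fold of 1.5 in either direction. *Bax* (0.93, interval 0.77 to 1.09) is the only gene whose interval lies wholly beyond the dashed line, the intervals of *Bbc3* and *Bcl2* lie above 0, and those of the other 6 include 0.

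To compare levels between genes, the signal was divided by the length of the longest protein-coding transcript. On this per-kilobase scale *Bax* was the most abundant member in both genotypes, with a mean of 2046 per kb in Ly5.1 and 3900 per kb in *Ltbr*-/- cells. Next in Ly5.1 cells came *Bak1* with 314 and *Mcl1* with 293 per kb, whose ranges over the samples overlapped (305 to 321 and 261 to 322). *Bad* (180) and *Bid* (156) followed, again with overlapping ranges. *Bcl2l1* (114) and *Bbc3* (110) could not be separated in Ly5.1 cells either, since 110 to 120 and 104 to 116 per kb overlapped. In *Ltbr*-/- cells *Bbc3* (142 to 158 per kb) lay above *Bcl2l1* (117 to 121 per kb) in all samples. *Bcl2* was lower, with 31.8 per kb in Ly5.1 and 39.5 in *Ltbr*-/- cells, and *Bcl2l11* was at 9.28 and 9.66 per kb. The longest transcript need not be the one used in HSCs, and for *Bcl2* it counts 7191 bases against 1100 for *Bax*.

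The balance between the classes was read as the log2 ratio of signals of 2 genes within a sample, which does not depend on a scaling factor common to the sample. Of 10 ratios compared, the 4 that contain *Bax* were higher in every *Ltbr*-/- sample than in every Ly5.1 sample, and the 6 others overlapped. *Bax* to *Bcl2l1* was 3.74, 3.78 and 3.88 in *Ltbr*-/- and 2.91, 2.89 and 3.01 in Ly5.1 replicates. The means, 3.80 ± 0.07 and 2.94 ± 0.06 (SD, n = 3 each), differed by 0.87, or 1.82-fold. *Bax* to *Mcl1* was 2.17, 2.24 and 2.32 against 1.38, 0.92 and 1.22. This was the largest of the 10 differences, with means of 2.24 ± 0.08 and 1.17 ± 0.23 that differed by 1.07, or 2.10-fold. *Bax* to *Bcl2* was 3.98, 3.71 and 4.08 against 3.39, 3.02 and 3.51, the smallest of the 4. Its means of 3.92 ± 0.19 and 3.30 ± 0.26 differed by 0.62, or 1.53-fold. Between the effectors, *Bax* to *Bak1* had means of 2.44 ± 0.07 and 1.58 ± 0.06, so that the RNA of the 2 effectors changed unequally. The exact two-sided permutation p was 0.1 for each of these 4 ratios, the smallest possible, and 0.25 after Benjamini-Hochberg adjustment over the 10, so the design could not pass 0.05.

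Where *Bax* was not in the ratio, the differences were small and the groups overlapped. *Bak1* differed by -0.24 relative to *Bcl2*, by 0.01 relative to *Bcl2l1* and by 0.22 relative to *Mcl1* (exact permutation p = 0.3, 0.9 and 0.2). For *Bcl2l11* the differences were -0.26, -0.01 and 0.20 (exact permutation p = 0.2, 0.9 and 0.2). As a description over the classes, the mean log2 signal was 8.74 ± 0.06 in *Ltbr*-/- and 8.66 ± 0.08 in Ly5.1 cells for the survival genes, 10.85 ± 0.08 and 10.34 ± 0.07 for the effectors, and 6.46 ± 0.05 and 6.33 ± 0.06 for the BH3-only genes (SD, n = 3 each). The BH3-only mean includes *Pmaip1*, which lay below the filter and was not tested. Effectors minus survival genes came to 2.08, 2.06 and 2.17 in *Ltbr*-/- and to 1.76, 1.52 and 1.76 in Ly5.1 replicates. These differed by 0.42, and of the 5 genes in both classes *Bax* alone was called.

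**Figure D3:**
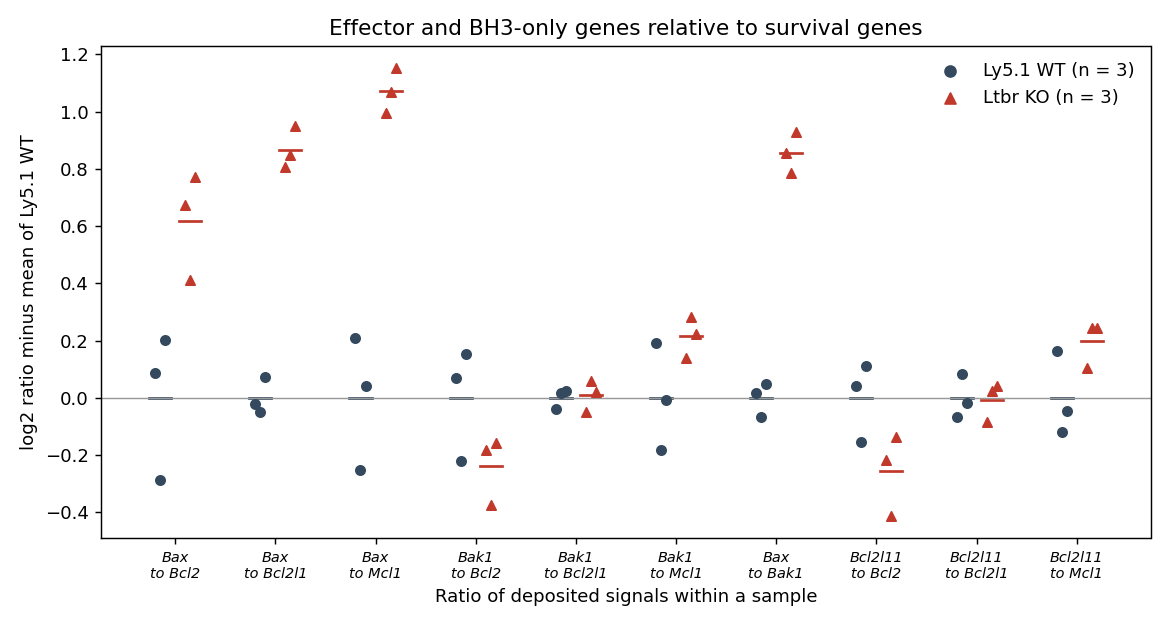
Log2 ratios of signals within each sample, for 10 pairs of members, each centred on its mean in Ly5.1 WT (circles, n = 3; *Ltbr* KO, triangles, n = 3; bars are means). The 4 ratios with *Bax* lie 0.62 to 1.07 higher in *Ltbr* KO with no overlap, and the 6 others overlap.

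The difference of *Bax* was set beside that of the ribosomal protein genes. The median log2 fold change of the 77 tested ribosomal protein genes was 0.79, and 76 of them were above 0. Centring each sample on these genes lowers every other gene by construction: the median log2 fold change of all genes then moved to -0.80, *Bax* stood at 0.14 (adjusted p = 0.132 from limma), and the 8 other tested members were below 0. Relative to the shifted median of all genes, *Bax* was at 0.94, *Bbc3* at 0.45 and *Bcl2* at 0.32. By construction these values restate the differences before centring, so they say nothing on the shift of the ribosomal protein genes. After centring on the median of tested genes *Bax* was at 0.93. That scaling could change little, since the median log2 was 8.46 to 8.47 in each sample. After quantile normalization *Bax* was at 0.85 (adjusted p = 8.18e-10 from limma), and it was called under both. The 5 tested genes with the profile most like that of *Bax* over the 6 samples, by the root mean square difference of centred log2 values, were *Gm6139* (0.0404), *Gm9385* (0.0435), *Gm10736* (0.0472), *Fth1* (0.0508) and *Rpl24* (0.0546). *Fth1*, the heavy chain of ferritin, and *Rpl24*, a protein of the large ribosomal subunit, had ratios of means of 1.89 and 1.90, close to the 1.91 of *Bax*. Among the members, *Bbc3* came nearest to *Bax* (0.261) and *Mcl1* was farthest (0.554). The part of a general shift of such transcripts in the value of *Bax* was not tested.

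The other genes of the apoptosis pathway were counted by list, to be read against the 10.6% of all tested genes that were higher, the 4.18% that were lower and the 2.72% that were called higher. At an unadjusted p under 0.05 from limma, 2060 of the 13108 tested genes were higher and 1495 lower. Of 16 other genes of the family, 9 were tested, 0 were called and 1 was higher at an adjusted p under 0.05 (limma; at an unadjusted p under 0.05, 1 higher and 0 lower). Without *Ltbr*-/- replicate 1, 1 gene of this list was called higher. The gene past the adjusted p in all 6 samples was *Bnip3*, a BH3-like protein of the mitochondrial membrane that is induced by hypoxia and marks mitochondria for removal. *Bnip3* had 222, 254 and 242 in *Ltbr*-/- and 153, 168 and 168 in Ly5.1 replicates, without overlap (log2 fold change 0.55, adjusted p = 1.66e-05 from limma). The 7 untested genes of that list had signals under 10 in each sample, and *Bcl2l10* and *Hrk* were listed at 1 in all of them. Downstream of the family, all 19 genes of mitochondrial release, the apoptosome and the caspases were tested, 0 were called, and *Endog*, a mitochondrial nuclease, was the 1 gene higher at an adjusted p under 0.05 (0.29, adjusted p = 0.0310 from limma; unadjusted, 4 higher and 1 lower). The medians of these lists were 0.04 and 0.03.

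The inhibitors of apoptosis proteins, which block caspases or their activation, had 9 tested genes, 0 called and 2 lower at an adjusted p under 0.05 (limma; unadjusted, 0 higher and 3 lower). *Xiap*, the direct caspase inhibitor, was 320, 272 and 287 in *Ltbr*-/- and 357, 417 and 346 in Ly5.1 replicates. These groups did not overlap, and the log2 fold change was -0.35 (adjusted p = 0.0122 from limma). *Naip5*, the other lower gene of this list and known as a sensor of bacterial flagellin, was at -0.31 (adjusted p = 0.0103 from limma). Of 10 tested genes of the death receptor pathway, *Fas* was the 1 gene that was higher (0.26, adjusted p = 0.0174 from limma), and it is also a p53 target, and 0 were lower (unadjusted, 1 higher and 2 lower). Among 23 tested regulators of *Bcl2* family proteins, 0 were called, 4 were higher and 1 was lower at an adjusted p under 0.05 (limma; unadjusted, 4 and 2). *Tpt1*, which has been described to stabilize MCL1, was at 0.45 (adjusted p = 2.20e-06), and *Pim1*, a kinase that phosphorylates BAD, at 0.47 (adjusted p = 2.38e-05). *Pim2*, a related kinase, followed at 0.33 (adjusted p = 0.0211). The 1 lower gene was *Moap1* (-0.29, adjusted p = 0.0334 from limma). The medians over the inhibitors, the death receptor genes and the regulators were -0.08, -0.09 and 0.01.

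Since *Bax* and *Bbc3* are targets of p53, 27 other p53 target genes were listed, of which 25 were found and 23 tested. The list was chosen with earlier results of these data known, so its counts are a description. Limma called 2 higher, *Dcxr* and *Cdkn1a*, and 0 lower, and without the fold threshold 6 were higher and 1 was lower (unadjusted, 10 higher and 2 lower). Over all tested genes these shares were 2.72%, 0.061%, 10.6% and 4.18%, and 2060 of 13108 were higher and 1495 lower at an unadjusted p under 0.05. The 2 calls became 1 when all names were tested and 0 after centring on the ribosomal protein genes. The median of the list was 0.09, and 14 of the 23 were above 0. *Cdkn1a*, the cell cycle inhibitor p21, had 816, 967 and 1009 in *Ltbr*-/- and 515, 431 and 539 in Ly5.1 replicates. The groups did not overlap, and the log2 fold change was 0.91 (adjusted p = 3.35e-09 from limma). *Dcxr*, a carbonyl reductase, was higher to a like degree, with means of 1437 ± 195 and 729.6 ± 108 (SD, n = 3 each; log2 fold change 0.98, adjusted p = 1.14e-09). *Psrc1*, a spindle protein, was at 0.48 (adjusted p = 7.57e-05) and *Ddit4*, an inhibitor of mTORC1, at 0.34 (adjusted p = 0.00978). The 1 gene that was lower at an adjusted p under 0.05 was *Plk2* (-0.29, adjusted p = 0.0350 from limma), whose groups did not overlap. *Trp53* itself had 2093, 2417 and 2297 in *Ltbr*-/- and 2181, 1995 and 2128 in Ly5.1 replicates, with overlap (log2 fold change 0.11, adjusted p = 0.418 from limma). p53 is regulated mainly as a protein, which was not measured.

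**Figure D4:**
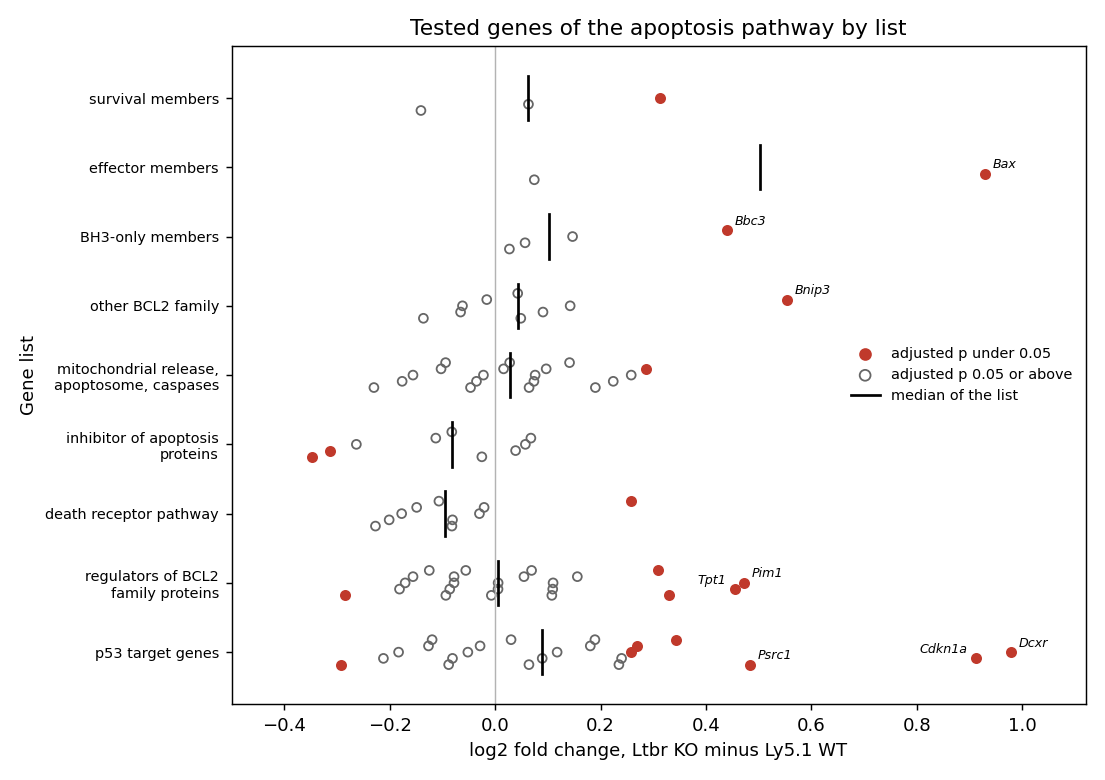
Log2 fold change (*Ltbr* KO minus Ly5.1 WT) of each tested gene of the *Bcl2* family classes and of 6 further lists of the apoptosis pathway; filled points have an adjusted p under 0.05 and bars are list medians. *Bax* (0.93), *Cdkn1a* (0.91) and *Dcxr* (0.98) stand apart from the other genes, which lie between -0.35 and 0.55.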

How the data were processed

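RNA of sorted LT/ST-HSCs was sequenced as stranded mRNA libraries in single reads of 76 bases. Reads were assembled in SeqMan NGen and analysed in ArrayStar by the authors, who used regularized log values, and the submitters' processing notes name DESeq2 and GRCm38 (mm10). The deposited signal is read here as 2 to the power of that value, as its values allow, so its log2 was tested without pseudocount, and differences of weakly expressed genes are understated. The files give no counts. The study's methods give a mean number of reads per sample, which is not analysed here, and the depth of each sample is not in the files used. The p-values from limma rest on a variance moderated towards a trend over all genes fitted, and they shift with the set of genes fitted. They thus do not measure the spread between the 3 replicates per group alone, and these replicates came from pooled chimeras.

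Of 26595 values per sample, 26216 names remained (for 75 repeated names the row with the highest mean was kept), and the upper 50% by mean, 13108, were tested; their median log2 was 8.46 to 8.47 in each sample. The fit used lmFit and eBayes with trend in limma 3.58.1 (R 4.3.3) and was tested on simulated data. Single values were compared with exact two-sided permutation tests. Positions and promoters came from RefSeq tables of GRCm38.p6, and transcripts from GENCODE. A planned search for the BH3 motif in protein sequences was not run. Members and lists were chosen with earlier results of these data known. The rule named the members, *Ltbr*, *Trp53*, the 5 genes nearest to *Bax*, the called genes of each list and, for pathway lists, up to 3 more by lowest adjusted p. The markers *Tpsb2*, *Cd3e* and *Prss34*, the lower genes *Moap1* and *Plk2*, the untested *Bcl2l10* and *Hrk* and the overlapping genes were named after their values were seen. Of the pathway lists, *March5*, *Tctp*, *Tigar* and *Pidd1* were not matched by name, but *Tctp* is another name of *Tpt1*, which was tested. As alternatives, a replicate block, other filters, thresholds, scalings and variance models, log2(signal + 10), summed repeated names, a correction by loess for length and GC of the transcript, and leaving out each sample were tried.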

Additional observations from a re-analysis of the deposited data

How the results depend on the processing

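The rise of *Bax* was called under every alternative but 2. These were a fold threshold of 2, which left 0 members called, and centring on the ribosomal protein genes, and it stood at 0.85 after quantile normalization and 0.76 after correction for transcript length and GC content. Centring on the ribosomal protein genes moved *Bcl2* to -0.48, *Bcl2l1* to -0.73, *Mcl1* to -0.93, *Bax* to 0.14, *Bak1* to -0.71, *Bid* to -0.76, *Bad* to -0.64, *Bcl2l11* to -0.73 and *Bbc3* to -0.35, and the class means of the survival, effector and BH3-only genes to -0.71, -0.29 and -0.66. It left 0 of the p53 targets called higher and 15 called lower. It gave 1 gene called higher and 11383 called lower, with 0 members higher and 6 lower, or 0 and 8 without the fold threshold. The construction shows the cause, since this scaling lowers every gene by the median rise of the ribosomal protein genes. Correction for length and GC content could use only the 90.7% of tested genes with a coding transcript. It left 173 genes called higher and *Bid* at -0.011. The part of the left-out genes in that count was not tested. Among the upper 25% of names, where fewer genes were tested, 4 genes were called lower and 1 member was higher at an adjusted p under 0.05 (limma). *Bcl2* and *Bbc3* were not among these names, so they were not tested there. Quantile normalization gave 28 genes called lower, *Bax* to *Bcl2l1* at 0.78 and *Bak1* to *Bcl2l1* at -0.0086. Without a fold threshold, 1388 genes were higher and 548 lower, with 3 members higher. *Bcl2* kept 0.31 without a filter and without the trend of the variance, with an adjusted p of 0.389 and 0.0689 (limma). For the other changes the cause was not tested.

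Leaving out each sample gave 334 to 398 genes called higher and 8 to 12 lower, *Bax* at 0.88 to 0.97, *Bbc3* at 0.40 to 0.48, *Bcl2* at 0.22 to 0.40, *Bad* at 0.06 to 0.31, *Mcl1* at -0.22 to -0.07, *Bid* at -0.10 to 0.15 and the mean of the survival genes at 0.05 to 0.12, and 2 to 3 members higher at an adjusted p under 0.05. *Bak1* to *Bcl2l1* ranged from -0.013 to 0.041 and *Bcl2l11* to *Bcl2l1* from -0.039 to 0.035, both around 0. The highest value of *Bad* came without Ly5.1 replicate 1 (adjusted p = 0.0575 from limma) and its lowest without Ly5.1 replicate 3. *Mcl1* was at -0.22 without Ly5.1 replicate 1 and at -0.07 without Ly5.1 replicate 2, and the mean of the survival genes was lowest without *Ltbr*-/- replicate 2 and highest without Ly5.1 replicate 2. *Bid* was below 0 without *Ltbr*-/- replicate 1 (-0.015) and without Ly5.1 replicate 3 (-0.10). Samples with the same replicate number did not deviate together (correlations over genes of 0.0314, -0.0052 and 0.0899). With the replicate block, 356 genes were called higher and 8 lower, the members called were again 1 higher and 0 lower, and the adjusted p from limma was 1.43e-09 for *Bax* and 0.0238 for *Bcl2*. Paired by number, the ratios cannot go below an exact sign-flip p of 0.25. The effect of depth on single samples was not tested, since the files give no counts.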
